A study of Mus musculus with 2 samples.

Results

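Voltage-gated calcium channels were described here through 10 genes, chosen by name: the 8 pore-forming alpha1 genes Cacna1a, Cacna1b, Cacna1c, Cacna1d, Cacna1e, Cacna1g, Cacna1h and Cacna1i, and the auxiliary alpha2delta genes Cacna2d1 and Cacna2d2. All 10 were found among the 43346 genes of the deposited tables, with 99 annotated transcripts. Total RNA longer than 200 nt had been sequenced from the forebrains of 2 newborn mice of strain B6NCrl on postnatal day 0, from 10 ng of RNA and 1 forebrain per library. The labels number pup 1 as replicate 1 and pup 3 as replicate 2. Together they formed 1 group with no stated treatment, no other genotype and no contrast. Sex was not collected, and the labels describe the forebrains as those of different pups while giving both the same donor identifier. The smallest p that an exact sign-flip test (two-sided) can give with 2 libraries is 0.5, so each value is read against the spread of the pups, and any spread may be technical.

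A voltage-gated calcium channel opens when the membrane depolarizes and lets calcium into the cell. Its alpha1 subunit holds the pore, the voltage sensors and most drug-binding sites, whereas an intracellular beta subunit and an extracellular alpha2delta subunit promote its delivery to the surface. L-type channels (Cacna1c, Cacna1d) couple depolarization to gene expression and pacemaking. P/Q-type (Cacna1a), N-type (Cacna1b) and R-type (Cacna1e) channels trigger transmitter release at nerve terminals. T-type channels (Cacna1g, Cacna1h, Cacna1i) open near the resting potential and underlie burst firing, for which thalamic neurons are known. Many of these genes carry alternative exons that change gating, drug sensitivity or binding partners.

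The exons that carry the transcript results are shown first. All come from the GENCODE M21 transcript sequences on GRCm38 (mm10), read from the 5′ to the 3′ end on the strand of the gene. The 104-base pair of Cacna1c and that of Cacna1d are mutually exclusive exons for the S6 segment of the first repeat of the L-type pore. Capitals mark the bases that differ between the exons of a pair. The Cacna1c exons lie on the minus strand at chr6:118742265-118742368 (upstream) and chr6:118741871-118741974 (downstream), and the Cacna1d exons on the minus strand at chr14:30171956-30172059 (upstream) and chr14:30171296-30171399 (downstream).
Cacna1c upstream: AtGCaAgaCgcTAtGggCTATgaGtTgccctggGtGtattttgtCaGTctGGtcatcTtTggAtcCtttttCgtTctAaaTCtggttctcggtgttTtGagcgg
Cacna1c downstream: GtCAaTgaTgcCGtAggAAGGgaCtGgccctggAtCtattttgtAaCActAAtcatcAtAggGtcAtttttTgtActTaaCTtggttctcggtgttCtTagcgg
Cacna1d upstream: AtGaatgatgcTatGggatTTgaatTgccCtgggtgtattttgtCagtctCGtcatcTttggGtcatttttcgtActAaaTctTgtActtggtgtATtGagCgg
Cacna1d downstream: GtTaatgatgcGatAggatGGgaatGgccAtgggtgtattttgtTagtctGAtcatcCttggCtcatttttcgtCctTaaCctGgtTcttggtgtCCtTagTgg
Within Cacna1c the exons differed at 32 of 104 bases (69.2% identical), and within Cacna1d at 22 (78.8% identical). Across the genes the upstream exons were 86.5% identical and the downstream exons 79.8%, so each exon was closer to its counterpart in the other gene than to its own partner. For the downstream exon of Cacna1d this rests on 83 against 82 of 104 bases.

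The 97-base pair of Cacna1b encodes alternative stretches of the cytoplasmic C-terminus of the N-type channel, and its upstream exon is known from pain-sensing neurons. The exons lie on the minus strand at chr2:24626823-24626919 (upstream) and chr2:24625238-24625334 (downstream). They differed at 40 of 97 bases, shown in capitals, and were 58.8% identical.
Cacna1b upstream: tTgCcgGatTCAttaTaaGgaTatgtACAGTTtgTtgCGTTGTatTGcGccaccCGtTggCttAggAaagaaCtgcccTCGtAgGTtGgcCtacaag
Cacna1b downstream: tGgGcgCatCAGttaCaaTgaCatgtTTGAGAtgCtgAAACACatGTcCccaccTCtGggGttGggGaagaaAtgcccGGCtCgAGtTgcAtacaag

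Cacna2d1 has alternative segments, commonly called A, B and C, whose combination differs between brain and muscle. Segment A is a 57-base exon at chr5:16322539-16322595, segment B is the first 15 bases of a 72-base exon at chr5:16326312-16326383 that also exists in a 57-base form, and segment C is a 21-base exon at chr5:16341990-16342010, all on the plus strand. Capitals mark the alternative segment. Lower case marks 15 flanking transcript bases on each side for A and C, and the constant rest of the exon for B.
Cacna2d1 segment A: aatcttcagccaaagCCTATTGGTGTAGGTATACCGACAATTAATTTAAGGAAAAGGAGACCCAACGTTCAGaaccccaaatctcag
Cacna2d1 segment B: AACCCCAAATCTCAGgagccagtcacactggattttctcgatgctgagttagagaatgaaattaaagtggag
Cacna2d1 segment C: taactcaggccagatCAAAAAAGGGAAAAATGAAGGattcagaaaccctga

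The libraries held 40066386 (pup 1) and 40431595 (pup 3) expected counts, which are reads divided among the features they fit. Of these, the 10 genes took 9556.94 and 5941.31. The tissue label was set beside marker lists: 6 of 6 neuron, 8 of 8 cortex, 8 of 8 striatum and 8 of 8 thalamus markers reached 1 TPM in both pups. None of 6 hindbrain and none of 6 retina markers did, with Hoxa2, Hoxb3 and Hoxb4 at 0 in both. TPM, the deposited unit of abundance, is a level per length relative to all other transcripts of the library.

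Cacna2d1 was the most abundant of the 10 genes, the T-type genes Cacna1h and Cacna1g stood with the presynaptic genes in the middle, and Cacna1d and Cacna1i were the lowest. In both pups 9 of 10 had 1 TPM or more, all but Cacna1i, as did 60.7% of all protein-coding genes. The median of the 10 was 4.66 TPM, against 17.04 TPM over the 13030 detected protein-coding genes. In bulk tissue a low level may stand for few cells or for little RNA per cell, and these cannot be told apart.

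Among the L-type genes, Cacna1c (chr6:118587240-119196418), the main L-type channel of brain and heart, had 3.66 TPM in pup 1 and 2.6 in pup 3, from 807 and 530 expected counts. Cacna1d (chr14:30039939-30491455), an L-type channel that opens at more negative voltages, had 2.12 and 1.28 TPM, from 470.24 and 321.88 counts. Cacna1c was higher in both pups and the ranges did not overlap, with a mean log2 ratio of 0.86 ± 0.15 (SD, n = 2 throughout). That ratio exceeded 3 SD, the criterion used here for a ratio larger than the pup spread. On protein-coding transcripts alone it was 0.29 ± 0.10 and no longer exceeded 3 SD. Genes on the opposite strand overlap both L-type genes, and the sources used here do not say whether the libraries kept strand: Dcp1b, an mRNA-decapping factor in the Cacna1c interval, had 10.82 and 10.14 TPM, and Dcp1a, which overlaps Cacna1d, had 4.01 and 3.16.

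The other L-type genes were near the floor. Cacna1s, the channel of skeletal muscle, had 0.97 TPM in pup 1 and 0.25 in pup 3, and Cacna1f, the channel of photoreceptors, 0.08 and 0.05. Of 6 skeletal muscle markers 2 were detected, with summed levels of 22.09 and 16.67 TPM, most of it from Acta1 (17.9 and 14.39 TPM). The 6 retina markers summed to 0.69 and 1.02 TPM. The part of these cells in the values was not tested.

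The presynaptic genes had similar gene-level TPM. Cacna1a (chr8:84388440-84640246), the pore of the P/Q-type channel of central synapses, had 7.24 TPM in pup 1 and 4.32 in pup 3. Cacna1b (chr2:24603887-24763152), the N-type pore, had 6.92 and 3.46 TPM, and Cacna1e (chr1:154390731-154884501), the R-type pore, 6.20 and 2.84. Pup 1 was higher for each, and the ranges of the 3 genes overlapped. Neither Cacna1a over Cacna1b (0.19 ± 0.18 on the log2 scale), Cacna1b over Cacna1e (0.22 ± 0.08) nor Cacna1a over Cacna1e (0.40 ± 0.26) exceeded 3 SD. The direction turned with the scale. Cacna1b over Cacna1e was 0.81 ± 0.02 on protein-coding transcripts and -0.61 ± 0.20 by counts not divided by length, both past 3 SD. The coding value includes a 523-base fragment of Cacna1b, with 1.79 and 1.37 TPM from 18.92 and 16.39 expected counts. The long Cacna1b transcripts had 4.59 and 1.90 TPM against 3.67 and 1.94 for coding Cacna1e, and so were higher in pup 1 only. Cacna1a over Cacna1e was -0.56 ± 0.21 on protein-coding transcripts, within 3 SD, and -1.39 ± 0.17 by counts, past it.

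The T-type genes split into a detected pair and a scarce one. Cacna1h (chr17:25374285-25433783) had 7.03 TPM in pup 1 and 5.09 in pup 3, and Cacna1g (chr11:94408391-94474198), the T-type gene of thalamic relay neurons, 4.70 and 4.90. Cacna1i (chr15:80287238-80398279), known from the thalamic reticular nucleus, had 0.50 and 0.29 TPM, from 121 and 78 expected counts. Cacna1h exceeded Cacna1i by 3.65 ± 0.12 and Cacna1g exceeded it by 3.34 ± 0.48 on the log2 scale, both larger than the pup spread. The level of Cacna1i depends on the estimate: its TPM lay below the deposited credibility intervals (0.594 to 1.86 TPM in pup 1, 0.379 to 1.55 in pup 3), and its mean was 0.395 by TPM and 1.04 by posterior mean TPM.

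Of the auxiliary genes, Cacna2d1 (chr5:15934691-16374511), a gabapentin-binding subunit, had 20.81 TPM in pup 1 and 9.32 in pup 3, and its lower value lay above the higher value of every other member. Cacna2d2 (chr9:107399612-107529343), which pairs with P/Q-type channels in the cerebellum, had 4.4 and 2.52 TPM. Cacna2d1 was 4.65-fold the level of Cacna2d2 in pup 1 and 3.60-fold in pup 3, a log2 ratio of 2.03 ± 0.26 that exceeded 3 SD. In the order of mean TPM, neighbours were apart, with ranges that did not overlap, only at Cacna2d1 over Cacna1h, Cacna1c over Cacna1d and Cacna1d over Cacna1i. The order within the run Cacna1h, Cacna1a, Cacna1b, Cacna1g, Cacna1e, Cacna2d2 and Cacna1c lay inside the pup spread at each step.

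**Figure D1:**
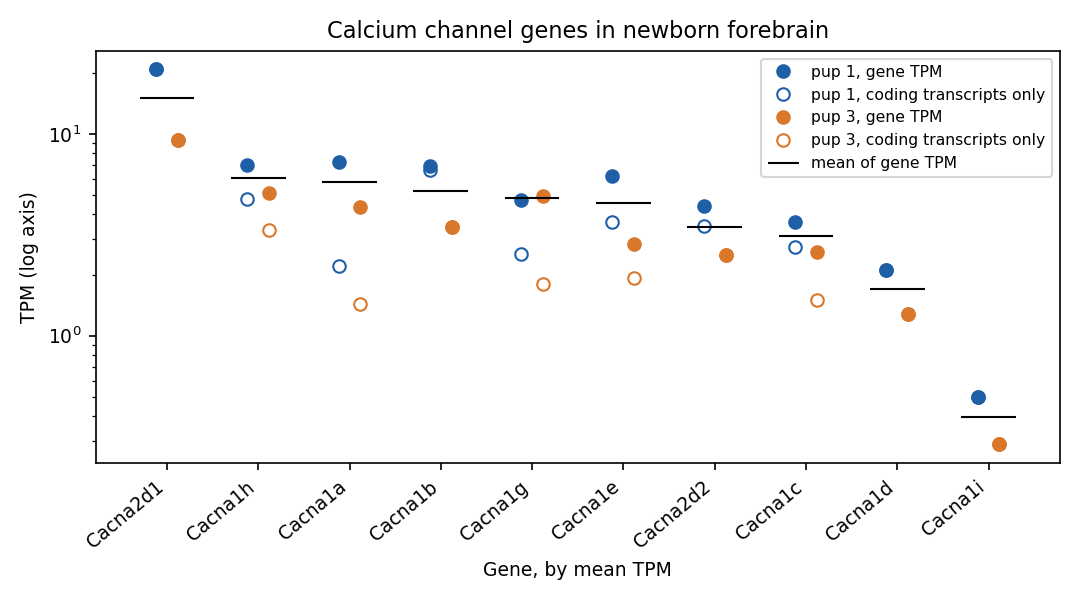
Level of each gene in TPM on a log axis, by pup: filled points are the deposited gene TPM, open points the TPM of protein-coding transcripts alone, and bars the mean of the gene TPM. Cacna2d1 stood above all others at 20.81 and 9.32 TPM, and the open points of Cacna1a lie at 2.21 and 1.44 TPM.

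The gene-level order rested in part on short transcripts annotated as noncoding. Retained-intron and other noncoding transcripts held most of the TPM of Cacna1a: protein-coding transcripts had 2.21 of 7.24 TPM in pup 1 and 1.44 of 4.32 in pup 3 (30.5% and 33.3%). The same coding transcripts held 80.0% and 87.2% of its expected counts, since TPM weights a read on a short transcript more. Cacna1g had 54.3% and 36.7% of its TPM on coding transcripts, Cacna1h 67.4% and 65.4%, Cacna1e 59.2% and 68.3%, and Cacna1c 75.1% and 58.1%. Cacna1d, Cacna1i and Cacna2d1 were almost wholly coding, at 99.5% or more in each pup by TPM. By posterior mean TPM a 273-base noncoding transcript of Cacna1i, Cacna1i-206, had 19.4% and 26.26%, and it is named for that.

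On coding transcripts alone the order changed. Cacna1b (6.58 TPM in pup 1 and 3.45 in pup 3) stood second after Cacna2d1, followed by Cacna1h (4.74 and 3.33), whereas Cacna1a stood eighth. Cacna1a over Cacna1b was then -1.37 ± 0.23 on the log2 scale, a change of sign from the gene-level value and larger than the pup spread. By counts not divided by length it was -0.78 ± 0.37, which did not exceed 3 SD. The coding TPM of Cacna1b includes 1.79 and 1.37 TPM of the 523-base fragment Cacna1b-208, and its long transcripts summed to 4.59 and 1.90 TPM. These long transcripts were below coding Cacna1h in both pups. They were above coding Cacna1a (2.21 and 1.44 TPM) in both, but with overlapping ranges. The coding ratio of Cacna1a over Cacna1b thus exceeded the pup spread only with the fragment, which had 18.92 and 16.39 expected counts. Cacna1h over Cacna1g, which did not exceed 3 SD on gene TPM (0.31 ± 0.37), was 0.86 ± 0.01 and did so. Only Cacna2d1 over Cacna1b and Cacna1d over Cacna1i were neighbours whose ranges did not overlap on that scale.

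**Figure D2:**
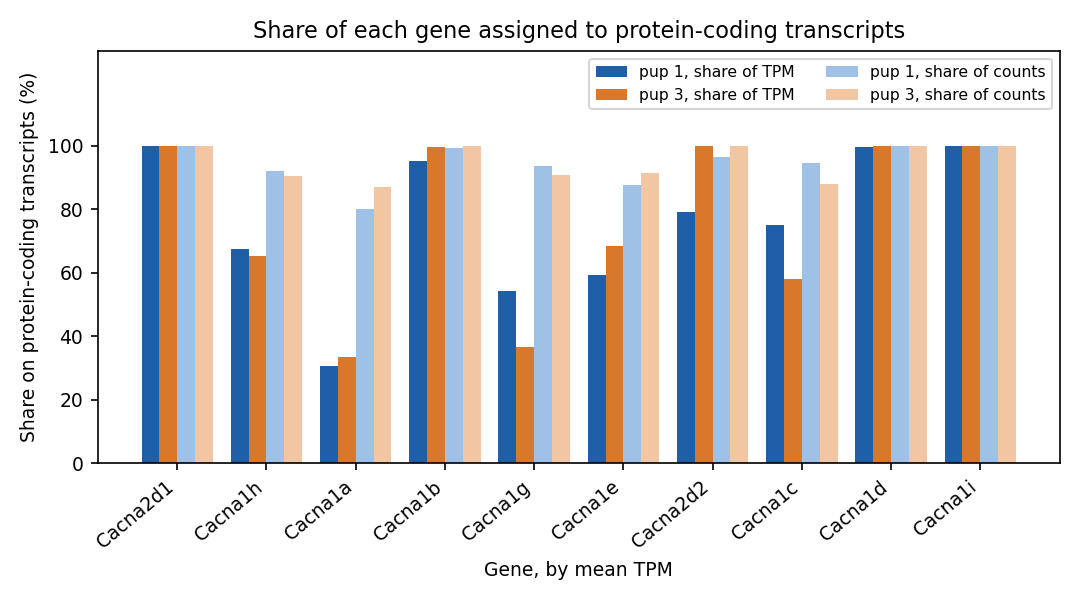
Share of each gene that was assigned to protein-coding transcripts, in percent, by pup and by scale: dark bars are shares of TPM and pale bars shares of expected counts. Cacna1a had the lowest share of TPM, 30.5% and 33.3%, with 80.0% and 87.2% of its counts.

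Summed over the 10 alpha1 genes of the family (the 8 described and Cacna1s and Cacna1f, which count as L type), the alpha1 TPM was 39.42 in pup 1 and 25.08 in pup 3. T-type genes held 31.0% of it in pup 1 and 41.0% in pup 3 (36.0% ± 7.05), the highest share of the classes in both pups. P/Q type had 17.8% ± 0.807, L type 17.0% ± 0.466, N type 15.7% ± 2.66 and R type 13.5% ± 3.11. On coding transcripts the T-type share was 33.2% ± 3.64 and N type came next at 24.4% ± 2.19, with P/Q type last at 9.11% ± 0.578. The place of N type before L type (19.7% ± 0.877) rests on the 523-base Cacna1b-208, with 18.92 and 16.39 counts. The long Cacna1b transcripts had 4.59 and 1.90 TPM of a coding alpha1 sum of 25.4 and 15.13. In expected counts, not divided by length, T type had 28.5% ± 4.15, R type 24.2% ± 1.77, L type 22.2% ± 0.581, N type 16.0% ± 3.39 and P/Q type 9.17% ± 0.427. By counts the lead of T type over R type was 25.5% against 25.4% in pup 1 and 31.4% against 22.9% in pup 3. P/Q type was lowest on the last 2 scales and second by gene TPM.

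**Figure D3:**
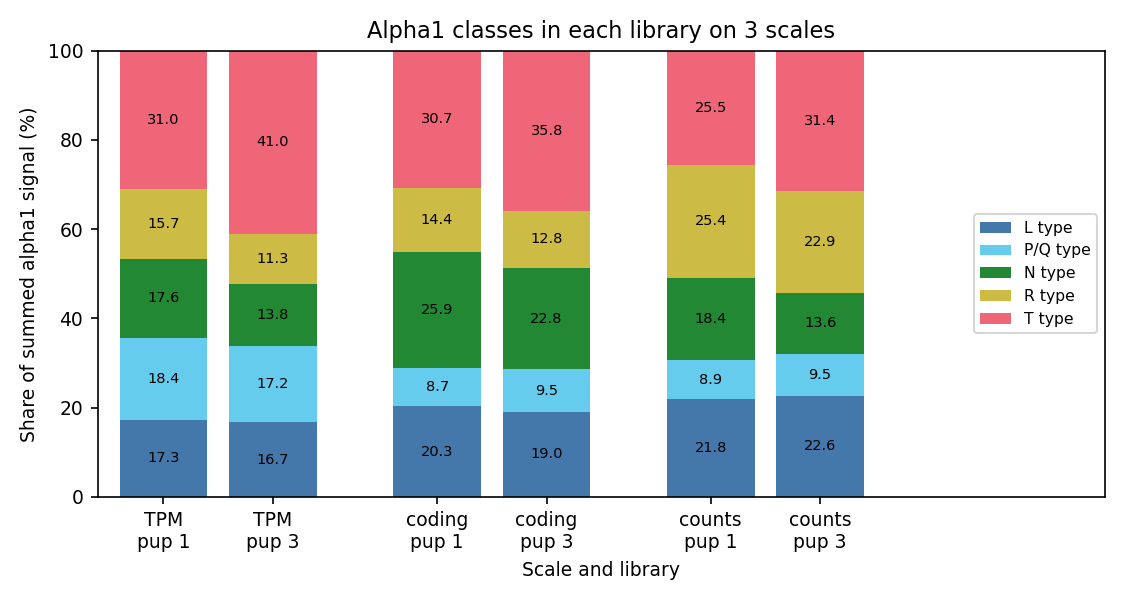
Share of each alpha1 class in the summed alpha1 signal of each library, in percent, by gene TPM, by TPM of protein-coding transcripts and by expected counts. The T-type segment was the tallest in every bar, from 25.5% to 41.0%, and the P/Q-type segment shrank from 18.4% and 17.2% by TPM to 8.70% and 9.52% by coding TPM.

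Transcript shares were read from the deposited percentage of each gene's TPM. The same transcript led in both pups for 9 of 10 genes. In Cacna1d the transcript Cacna1d-201 held 93.76% and 90.28%, in Cacna1i Cacna1i-202 held 100% in both (41.67% and 30.31% by posterior mean TPM), and in Cacna2d2 Cacna2d2-208 held 63.91% and 88.22%. Cacna2d1-203 held 63.09% and 78.52%, with Cacna2d1-204 second at 35.26% and 17.62%. Cacna1e-203 held 59.20% and 68.21%, beside the retained-intron transcripts Cacna1e-204 (24.20% and 19.19%) and Cacna1e-206 (12% and 10.8%). Protein-coding transcripts were thus in the lead for the R-type, the low L-type and the alpha2delta genes.

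The other genes were more divided. Cacna1a-201, a coding transcript, led at only 30.00% and 32.73%. Cacna1h-205 had 56.71% and 46.52%, with the retained-intron Cacna1h-203 at 24.04% and 27.68% and the short Cacna1h-206 at 10.72% and 12.53%. Cacna1c-207 had 50.67% and 37.19%, Cacna1c-216 23.91% and 20.85%, and the noncoding Cacna1c-223 11.56% and 33.18%. Cacna1b-204 had 41.28% and 51.12%, and the 523-base fragment Cacna1b-208 25.94% and 39.75% from 18.92 and 16.39 expected counts. Cacna1g alone changed its leading transcript: the noncoding Cacna1g-215 led in pup 1 (31.93% against 21.28%) and the noncoding Cacna1g-213 in pup 3 (4.32% against 36.06%, from 1.69 and 16.65 counts). Its leading coding transcript, Cacna1g-205, had 22.86% and 16.85%. High shares of such short transcripts thus rested on few reads.

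Alternative internal exons were compared as the summed TPM of the coding transcripts that use each form. Reads across the exons themselves are not in the tables, so each share follows the division of reads among whole transcripts, and exons carried by the same transcript share 1 value. In 9 genes, 35 sites joined the same flanking exons in more than 1 way, and at 20 of these 1 form held 90% or more in both pups. By posterior mean TPM, which spreads some signal over transcripts otherwise at 0, 15 sites did. Sites were counted by their flanking exons, so 1 pair of exons can enter more than once. The 60-base and 84-base pairs of Cacna1c, whose leading exons held 65.9% and 66.1%, also enter at sites with 1 form at 100%. There the other form, with both exons of the pair, was at 0. These numbers of sites are therefore not numbers of separate exons.

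The L-type genes used the upstream 104-base exon more, to different degrees. In Cacna1c it held 67.6% in pup 1 and 64.2% in pup 3 (65.9% ± 2.40), against 32.4% and 35.8% for the downstream exon. In Cacna1d it held 93.8% and 90.6% (92.2% ± 2.27), so the pups' ranges of the 2 genes did not overlap. By posterior mean TPM the values were 65.6% and 64.3% for Cacna1c and 89.9% and 75.6% for Cacna1d, which left the ranges apart. The Cacna1c split is that of Cacna1c-207, with 603.2 and 356.07 expected counts, against Cacna1c-216, with 157.76 and 110.64. Pairs of 84 and 60 bases further along Cacna1c are carried by the same transcripts and so gave nearly the same split. Both Cacna1d transcripts have another length in M21 than in the deposited table, so their exons may differ from the model used for quantification.

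The N-type and R-type genes each used 1 form of a pair. Cacna1b had all of its TPM across the site on the downstream 97-base exon in both pups (1086.12 and 505.54 counts), with the upstream exon at 0. By posterior mean TPM the downstream share was 96.2% and 90.8%. Its 6-base exon was included in 95.9% and 93.2%. A 108-base exon was included in 66.2% in pup 1 and 100% in pup 3, which is the presence of Cacna1b-202 in pup 1 (22.40%, 368.14 counts) and its value of 0 in pup 3. Cacna1b-202 is named for this difference, after its values were seen. By posterior mean TPM the inclusion was 63.4% and 87.8%. In Cacna1e the downstream exon of a 12-base pair had 100% in both pups.

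Among T-type genes, the exons of Cacna1g varied between pups. Its 69-base exon was included in 38.8% in pup 1 and 53.9% in pup 3 (46.4% ± 10.7), and 53.2% and 53.0% by posterior mean TPM. Its 54-base exon was included in 79.0% and 100%, and by posterior mean TPM in 76.9% and 73.5%. The difference between the pups in both exons was therefore absent or turned with the estimate, and the depth of 508.36 and 402.58 coding counts divided among 11 coding transcripts limits it.

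By TPM, Cacna2d1 had no transcript with segment A and mostly carried segments B and C. Transcripts with segment A were at 0 by TPM in both pups, and had 1.23% and 1.21% by posterior mean TPM. Segment B, the 72-base form, had 64.7% in pup 1 and 82.4% in pup 3 (73.6% ± 12.5), and the form without it 35.3% and 17.6%. Segment C was included in 98.4% and 96.1% (97.3% ± 1.58), from 2999.51 and 1664.1 expected counts. The share without segment B is that of Cacna2d1-204, which has 3412 bases against 7436 for Cacna2d1-203 in the deposited tables, so the split also rests on how reads were divided between transcripts of unlike length. In Cacna2d2, by contrast, a 21-base exon was included in only 7.76% and 11.9% (9.83% ± 2.93), and in 10.2% and 16.2% by posterior mean TPM. The TPM shares came from Cacna2d2-205 in pup 1 (38.08 expected counts) and Cacna2d2-202 in pup 3 (42.48), each at 0 in the other pup. Of the 99 transcripts, 93 have the same length in M21. Among the 6 that do not are Cacna2d1-203, Cacna2d1-202 and Cacna2d1-201, the only transcript with segment A, so the exons of all 3 were taken from M21 and may differ in the model used for quantification.

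**Figure D4:**
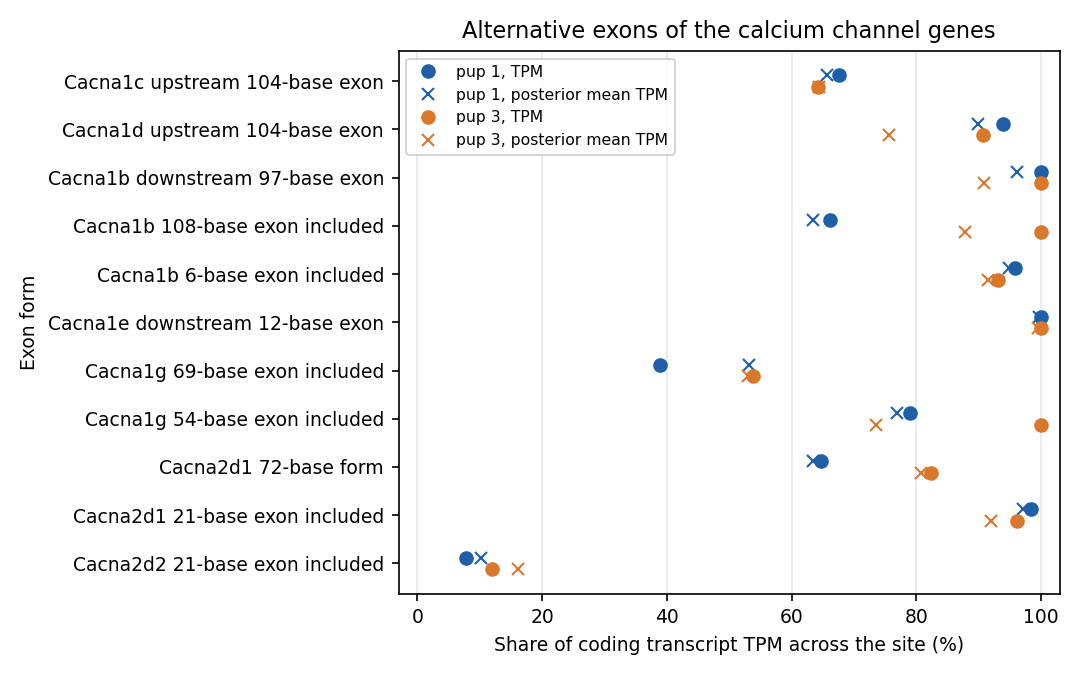
Share of the TPM of coding transcripts across each site that used the named exon form, in percent, by pup: points are from TPM and crosses from posterior mean TPM. The Cacna1c points lie at 67.6% and 64.2%, those of Cacna1d at 93.8% and 90.6%, and the points and crosses of the 54-base exon of Cacna1g differ for pup 3.

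Between the pups, 9 of 10 genes were lower in pup 3. Of the 9 with a mean TPM of 1 or more, 8 were lower, as were 80.4% of all genes at that level. After TMM scaling, which centres the libraries on most of their genes, the same count of 8 stood beside 48.3% of all genes. The median log2 ratio of pup 3 over pup 1 was -0.73 for the 9 genes and -0.27 for all genes, and after TMM -0.45 and 0.01. For genes with a mean transcript length of 5 kb or more it was -0.54, and -0.26 after TMM. Their 95th percentile was -0.13, so nearly all of these long genes were lower in pup 3, and 0.15 after TMM. Cacna1b, Cacna1c, Cacna1d, Cacna1e, Cacna1h and Cacna2d1 have such a length. Ratios use TPM + 0.1, which understates differences of low genes.

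The ratio was largest for Cacna2d1, at -1.15, followed by Cacna1e at -1.10 and Cacna1b at -0.98. Cacna2d2 had -0.78, Cacna1a -0.73, Cacna1d -0.69, Cacna1i -0.62, Cacna1c -0.48 and Cacna1h -0.46, and Cacna1g alone had a positive value, 0.06. A gene was taken as differing when its mean reached 1 TPM, its levels, with 0.1 TPM added to each, differed at least 2-fold and its deposited intervals were apart. Cacna2d1 (2.22-fold lower in pup 3) and Cacna1e (2.14-fold lower) did so, 2 of 9, against 3.98% of all genes in either direction and 3.85% lower in pup 3. Cacna1b lay at the border: its TPM differed by exactly 2-fold with intervals apart, and by 1.97-fold with 0.1 added. After TMM scaling neither Cacna2d1 nor Cacna1e met the rule, with folds of 1.82 and 1.77, against 1.21% of genes lower in pup 3. The near-equal gene TPM of Cacna1g held only with its noncoding transcripts: coding TPM was 2.55 in pup 1 and 1.80 in pup 3.

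**Figure D5:**
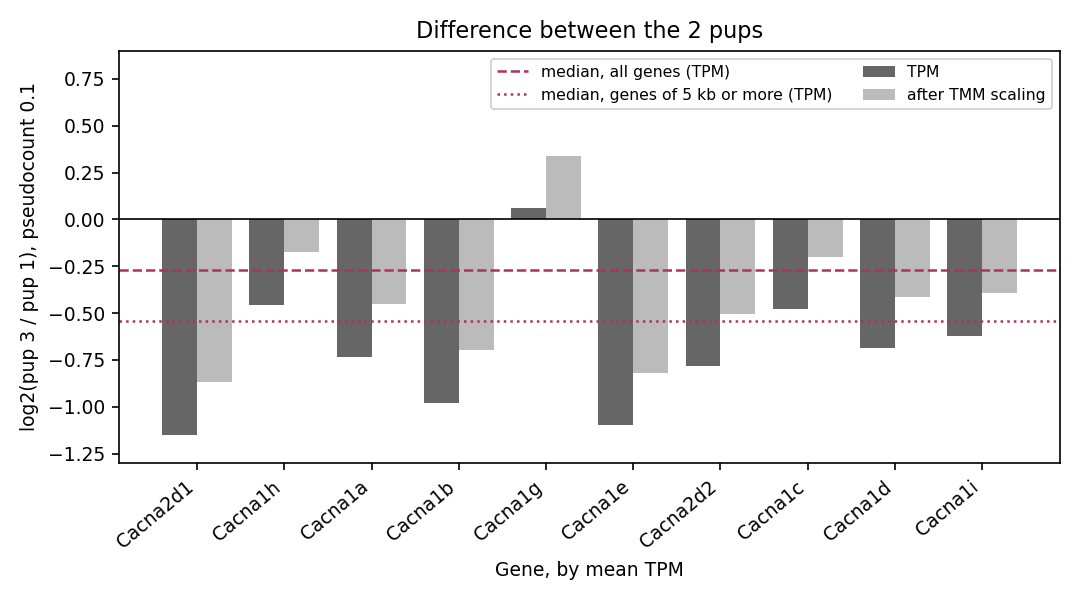
log2 ratio of pup 3 over pup 1 for each gene, from TPM (dark bars) and after TMM scaling (pale bars), with the median of all genes and of genes of 5 kb or more as lines. Cacna2d1 at -1.15 and Cacna1e at -1.10 lie farthest below the lines of -0.27 and -0.54, and Cacna1g lies above 0.

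Transcript length and thalamus markers moved with this difference. The median log2 ratio was -0.09 for genes with a mean transcript length under 2 kb, -0.33 from 2 to 5 kb and -0.54 for the 1400 genes of 5 kb or more, or -0.26 for the last after TMM. The marker lists were chosen with earlier results of these data known, so their counts only describe these 2 libraries. Of 8 thalamus markers, 8 were lower in pup 3, beside 80.4% of all genes, and 6 were so by the 2-fold criterion, beside 3.85%. After TMM 7 were lower and 3 met the criterion, beside 48.3% and 1.21%. The thalamus markers summed to 406 TPM in pup 1 and 169 in pup 3. They ranged from 13.83 to 242.76 TPM per gene in pup 1 and from 5.26 to 93.06 in pup 3. Of 8 striatum markers 7 were lower, or 4 after TMM, none by the criterion, with a median log2 ratio of -0.26 beside -0.27 for all genes. The 8 cortex markers summed to 483 and 610 TPM, and 2 of them were lower in pup 3, or 1 after TMM, where 1 met the criterion. Most of the rise of that sum came from Neurod6 alone (206.23 and 329.46 TPM), named for that. The median log2 ratio of the 8 cortex markers was 0.04, or 0.32 after TMM. Neuron markers summed to 3949 and 3365 TPM. The part of length, of regional makeup or of either library in the channel ratios was not tested.

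The partners of the channels were read from lists of known subunits and regulators, of which 62 of 75 genes reached 1 TPM in both pups. These lists too were chosen with earlier results of these data known. All 4 beta genes, the intracellular subunits that traffic alpha1, were detected. Cacnb3 had 108.89 TPM in pup 1 and 101.05 in pup 3, Cacnb1 49.40 and 40.81, Cacnb4 11.85 and 7.64, and Cacnb2 4.10 and 1.63. Cacnb3 exceeded Cacnb1 by 1.22 ± 0.12 on the log2 scale, larger than the pup spread. Cacnb2 was the 1 beta gene that differed between pups, 2.43-fold lower in pup 3, and also did so after TMM scaling. Of all genes, 3.85% were lower in pup 3 by that criterion, and 1.21% after TMM. Beta TPM summed to 174 and 151, several times the summed alpha1 TPM.

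Cacna2d3, another alpha2delta gene, had 29.63 TPM in pup 1 and 21.29 in pup 3 and so was above Cacna2d1 in both, by 0.85 ± 0.48 on the log2 scale, which did not exceed 3 SD. By counts not divided by length the ratio was 0.05 ± 0.37, with Cacna2d3 lower in pup 1 (-0.21) and higher in pup 3 (0.31). Cacna2d4, known from photoreceptors, had 0.42 and 0.46 TPM. Among the ligands and receptors tied to alpha2delta, 4 of 5 were detected: Lrp1, an endocytic receptor, had 60.29 and 34.64 TPM, Thbs3, a thrombospondin, 37.18 and 25.88, and Thbs4 was lowest at 0.83 and 0.48. None of the 4 with a mean of 1 TPM or more differed by the 2-fold criterion.

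The 8 gamma genes, most of which act as AMPA receptor auxiliaries rather than channel subunits, had 6 detected members. Cacng4 led at 49.60 and 36.34 TPM, with Cacng3 at 24.76 and 14.33, and Cacng6 was lowest at 0.30 and 0.36. Of 12 regulators, 10 were detected. Calm2, a calmodulin gene whose product mediates calcium-dependent feedback on the channels, had 2737.2 TPM in pup 1 and 2761.52 in pup 3, and Stac3, an adaptor of the muscle channel, was lowest at 0.43 and 0.17. None of the gamma genes or regulators differed between the pups by the 2-fold criterion.

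Active zone proteins, which hold channels at release sites, were all detected, 9 of 9. Erc2 had 41.31 and 27.84 TPM, Erc1 36.92 and 25.04, and Rimbp2, which links channels to RIM, was lowest at 2.97 and 1.75. All 9 were lower in pup 3, beside 80.4% of all genes with a mean of 1 TPM or more. After TMM scaling all 9 were also lower, beside 48.3%. Rims1 (11.58 and 4.4 TPM), Rims2 (9.91 and 4.61) and Pclo (7.61 and 3.10) met the 2-fold criterion, and of these Rims1 did so after TMM. Of all genes, 3.85% were lower in pup 3 by that criterion, and 1.21% after TMM. These 3 are named because they met it.

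The remaining lists held the sodium leak channel, calcium stores, calcium removal and splicing regulators. Of the sodium leak complex, 4 of 4 genes were detected, with the highest mean TPM for Fam155a (22.00 and 13.18 TPM) and the pore Nalcn (7.97 and 4.02), and the lowest for Unc80 (4.57 and 2.13), which differed between the pups by TPM but not after TMM. Unc79, at 3.81 and 4.76 TPM, was below Unc80 in pup 1 and above Nalcn in pup 3. Of 11 genes for store release and entry, 8 were detected, with Orai2 at 42.22 and 34.09 TPM, the store sensor Stim2 at 31.22 and 25.80 and the receptor Itpr3 lowest at 0.26 and 0.25. Ryr3, a release channel, was the 1 that differed (4.99 and 2.12), though not after TMM, and is named for that. Unc80 and Ryr3 stand beside 3.85% of all genes that were lower in pup 3 by the criterion, and 1.21% after TMM. Of 10 pumps and exchangers, 8 were detected, with the plasma membrane pump Atp2b1 at 81.92 and 54.29 TPM, the reticulum pump Atp2a2 at 37.16 and 28.05 and the muscle pump Atp2a1 lowest at 0.45 and 0.09. All 8 splicing regulators were detected, with Rbfox1 at 141.19 and 131.1 TPM, Ptbp2 at 114.43 and 101.08 and Nova2 lowest at 12.76 and 7.75, and none differed by the criterion.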

How the data were processed

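Total RNA-seq tables of 2 forebrain libraries were used. Per the deposited notes, the authors quantified reads on mouse assembly mm10 with GENCODE M4. The sources used here do not give the aligner, the quantifier, any version or the strandedness. Per the file headers, the authors deposited expected counts (reads shared among features are divided), TPM, posterior mean TPM, credibility bounds of unstated level, and each transcript's percent of its gene's TPM.

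Symbols, transcript types, exons and sequences came from GENCODE M21 (GRCm38), matched without version. From the deposited TPM, means, SD, ratios (pseudocount 0.1) and shares were computed with Python 3.11.15, pandas 2.3.3 and numpy 2.4.6. Scaling alternatives used TMM of edgeR 4.0.16 and size factors of DESeq2 1.42.0 on rounded counts (R 4.3.3). The 2-fold rule was applied to the 14985 genes with a mean of 1 TPM or more. Exon sites needed a summed TPM of 0.1 or more in each pup. Alternatives were posterior mean TPM, coding transcripts only, counts, other thresholds and pseudocounts, and each pup alone. Precision is limited by 2 libraries, whose summed expected counts were close; deposited intervals cover the quantification only.

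The members and gene lists were chosen with earlier results of these data known. All 10 members, both alpha1 and alpha2delta partners and all beta genes were named, then the 2 highest and the lowest gene of each further list, transcripts at 10% or more in both pups or leading, and markers by count. A gene that this rule names is not reported here.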

Additional observations from a re-analysis of the deposited data

How the results depend on the processing

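Of 36 alternative values of the summary results, 23 were rated as the same. The rule was a move within the pup SD for levels and shares. For counts of genes, pairs or sites it was a change within 1.5-fold, and for log2 ratios one under 0.1. The T-type share of 1 pup lies within the SD of the 2 pups by construction, so its rating shows no stability. On protein-coding transcripts alone the members' median level fell to 2.49 TPM from 4.66. The number of the 10 pair ratios that exceeded 3 SD was 5, and 8 when counts were not divided by length, where the T-type share was 28.5%. The median log2 ratio of pup 3 over pup 1 was -0.62 with a pseudocount of 1, -0.45 after TMM and -0.44 with DESeq2 size factors, against -0.73. The number of members that differed between the pups was 0 after TMM and 0 with DESeq2 size factors, and 6 at 1.5-fold (where 16.9% of all genes passed), against 2. The median share of the leading transcript was 57.7%, 37.3% by posterior mean TPM and 81.0% among coding transcripts. At 5 TPM, 39 partner genes were detected in place of 62.

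With each pup left out in turn, the median level ranged from 3.15 to 5.45 TPM, the T-type share from 31.0% to 41.0%, the leading transcript share from 57.96% to 59.67%, the number of sites with 1 form at 90% or more was 23 both times, and 62 to 63 partner genes were detected. The main numbers of sites and partner genes need the threshold in both pups. With 1 pup these numbers could therefore not fall, and they show no stability. A pair ratio with 1 pup has no SD, so the 3 SD criterion could not be applied. A pair was called only where both pups had the same sign, so leaving 1 pup out could not turn the sign of a called pair. No paired analysis was possible because both libraries belong to 1 group. The cause of these changes was not tested. Depth limits the shares of short transcripts such as Cacna1g-213, which had 1.69 and 16.65 counts.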
